A study of Mus musculus with 9 samples.

Results

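The genes described here encode the receptors and ligands of platelet-derived growth factor (PDGF) in NIH3T3-CG cells, a line of mouse embryonic fibroblasts. They were matched by symbol and number 5 of the 30407 features shared by all libraries: the receptors Pdgfra and Pdgfrb and the ligand chains Pdgfa, Pdgfb and Pdgfc. All 5 passed the filter on low counts, which kept 14354 genes over 9 libraries, Pdgfb at very low counts.

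PDGF receptors are tyrosine kinases of the cell surface that pair when a dimeric ligand binds them and then switch on PI3-kinase, phospholipase C gamma and the Ras and MAP kinase pathway. PDGF-A and PDGF-C chains act through the alpha receptor, while PDGF-B binds the alpha and the beta receptor alike, and PDGF-C must first be cut by a protease such as tissue plasminogen activator. In fibroblasts PDGF is a classical serum mitogen, and both receptors mark cells of the mesenchymal lineage.

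Single cells were profiled with the 3' v3.1 chemistry of 10x Genomics, in which each unique molecular identifier (UMI) stands for 1 captured transcript end, during treatment with SAG, an agonist of Smoothened that switches on the Hedgehog pathway. Experiment 1 holds 1 library each at 0, 17 and 30 h of SAG. Experiment 2 holds 1 library each at 0, 19 and 30 h without Dox and at the same times with Dox (doxycycline), and what Dox switches on is not stated in the labels. Experiment 1 is used here as free of Dox because its labels name none, and the libraries hold no later time without SAG, so SAG time and time in culture cannot be told apart. The cells are 1 line, and nothing in the labels says that libraries came from separate cultures, so each p-value reflects library-to-library spread only, possibly technical.

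After a floor of 5000 UMIs and a ceiling of 10% mitochondrial UMIs, the libraries held 571 to 6520 cells and 19407468 to 105444824 UMIs. The library of Experiment 2 at 19 h without Dox was shallow, with a median of 8025 UMIs per kept cell against 28335 to 48188 in the others. Mitochondrial UMIs were below 1% in 17.9% to 19.7% of the kept cells of 3 libraries of Experiment 2 (30 h without Dox, 19 h and 30 h with Dox) and in 0.429% to 1.41% of the cells of the others. At most 9 kept barcodes were shared by any 2 libraries, up to 0.513% of the smaller library. The fibroblast label held in cells with at least 10000 UMIs, thinned at random to 10000 UMIs each. Of these, 99.5% to 100% in a library had UMIs of at least 3 of 9 fibroblast markers. None had 3 markers of the endothelial, immune, epithelial, oligodendrocyte progenitor or platelet lists. In the shallow library 2610 of the 6520 kept cells were checked in this way. Gli1, the classical target gene of Hedgehog signalling, was at 0.0509 to 0.206 CPM (edgeR's depth-normalised count, a gene's share of the library's UMIs, with TMM factors) in the 3 libraries at 0 h and at 3.98 to 25.8 CPM in the 6 libraries with SAG.

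Pdgfra encodes PDGF receptor alpha (ENSMUSG00000029231, chromosome 5, 75152292 to 75198215 on the plus strand of GRCm38), Pdgfa the PDGF-A chain (ENSMUSG00000025856, chromosome 5, 138976014 to 138997370, minus strand), Pdgfb the PDGF-B chain (ENSMUSG00000000489, chromosome 15, 79995874 to 80014977, minus strand) and Pdgfc the PDGF-C chain (ENSMUSG00000028019, chromosome 3, 81036416 to 81214040, plus strand). Each of these genes has an antisense transcript annotated within it (Gm42802 in Pdgfra, 6330403L08Rik in Pdgfa, Gm41361 in Pdgfb and Gm16000 in Pdgfc). Strand use in the counting is not given in the sources used here. Whether reads of an antisense partner entered a gene's count was not checked. Pdgfrb (ENSMUSG00000024620) encodes PDGF receptor beta and has no overlapping gene in the annotation. The 250 bases before the RefSeq start are shown for Pdgfra, the most abundant member and the receptor that differed most between the experiments, and for Pdgfc, the ligand whose level spanned the widest range. Sequences are from RefSeq on GRCm38.p6, and capitals mark a match to TTGCNNAA, a form of the C/EBP motif.

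Pdgfra chr5:75152001-75152250, plus strand: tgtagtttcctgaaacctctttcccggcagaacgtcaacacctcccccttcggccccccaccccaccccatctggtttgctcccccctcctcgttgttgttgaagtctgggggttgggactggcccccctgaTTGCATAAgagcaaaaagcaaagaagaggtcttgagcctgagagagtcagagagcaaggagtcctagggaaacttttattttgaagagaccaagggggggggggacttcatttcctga
Pdgfc chr3:81036166-81036415, plus strand: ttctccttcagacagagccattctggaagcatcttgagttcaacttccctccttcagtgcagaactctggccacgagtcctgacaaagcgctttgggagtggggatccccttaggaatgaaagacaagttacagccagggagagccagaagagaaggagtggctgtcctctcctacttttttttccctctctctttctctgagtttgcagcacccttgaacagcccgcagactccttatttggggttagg

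Both strands of these windows, and of 2 windows of Pdgfa (chromosome 5, minus strand, 138994282 to 138994531 and 138994945 to 138995194), were searched for TTGCNNAA, for the GLI motif GACCACCCA and for the GC box GGGCGG, which do not overlap each other here. The Pdgfra window held TTGCNNAA once, 118 bases before the start, and the Pdgfa windows held the GC box 1 and 2 times. The GLI motif was in none of the 4 windows. Of 32851 RefSeq promoter windows of this length, 9.56% held TTGCNNAA, 32.7% the GC box and 0.225% the GLI motif. A match is a match of letters only, and its absence says nothing about GLI proteins at these genes.

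Pdgfra was the most abundant of the 5 genes in every library, and Pdgfb was close to absent. UMIs count transcript ends, so the values need no scaling by gene length. Pdgfra stood at 128, 147 and 129 CPM in Experiment 1 at 0, 17 and 30 h, at 63.2, 61.0 and 60.2 CPM in Experiment 2 without Dox at 0, 19 and 30 h, and at 100.4, 129 and 97.3 CPM with Dox. The 3 arms are thus set apart by Pdgfra more than the SAG times are: the lowest level of Experiment 1 is above every level of Experiment 2 without Dox, and the arm with Dox lies between or level with Experiment 1. In the order of the 9 levels, the libraries at 129, 129 and 128 CPM overlap in their 95% Poisson intervals, as do the pair at 100.4 and 97.3 CPM and the 3 at 63.2, 61.0 and 60.2 CPM. These intervals cover counting error only.

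Pdgfrb stood at 25.9, 21.4 and 22.3 CPM in Experiment 1, at 22.9, 23.5 and 25.3 CPM in Experiment 2 without Dox and at 51.2, 47.5 and 43.9 CPM with Dox. The 6 libraries without Dox lie close together across both experiments, and the 3 with Dox are all above them. With TMM factors Pdgfrb thus had no counterpart of the gap in Pdgfra between the experiments. On library totals without these factors the log2 difference of Experiment 2 from Experiment 1 without Dox was -0.93 at 0 h, -0.31 at 17 to 19 h and 0.02 at 30 h.

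Pdgfa was the steadiest member, at 46.3, 42.1 and 41.9 CPM in Experiment 1, at 46.5, 47.1 and 43.8 CPM in Experiment 2 without Dox and at 45.1, 46.6 and 56.5 CPM with Dox. Only the library at 30 h with Dox stood apart, above the other 8. Pdgfc was at 30.2, 32.5 and 27.5 CPM in Experiment 1, at 16.0, 19.4 and 24.9 CPM in Experiment 2 without Dox and at 10.4, 30.1 and 35.4 CPM with Dox. It was lowest in both libraries of Experiment 2 at 0 h. For Pdgfb the raw counts were 0, 1 and 0 in Experiment 1, then 8, 5 and 15 without Dox and 3, 11 and 15 with Dox in Experiment 2. The 2 counts of 0 allow up to 0.0882 and 0.116 CPM, and the highest level of Pdgfb was 0.168 CPM, in the library at 30 h with Dox.

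**Figure D1:**
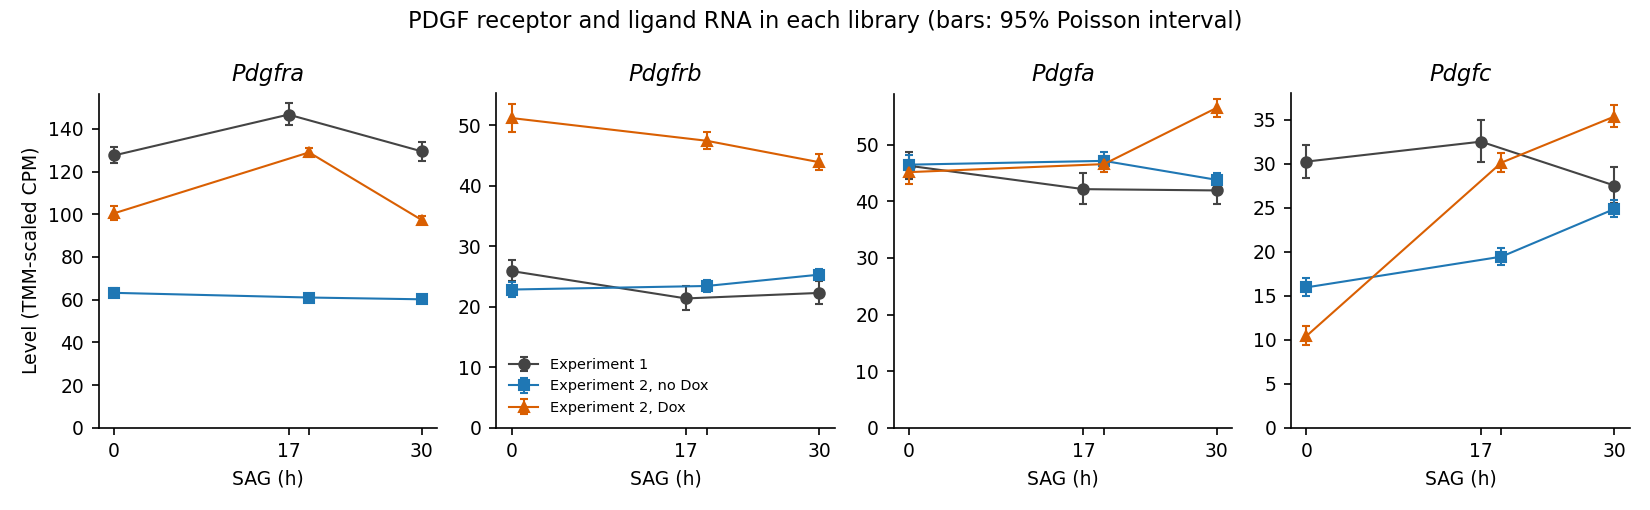
Level of 4 members (TMM-scaled CPM) against hours of SAG, 1 point per library, with 95% Poisson intervals as bars; lines join the libraries of Experiment 1 (circles), Experiment 2 without Dox (squares) and Experiment 2 with Dox (triangles). Pdgfra separates Experiment 1 (128 to 147 CPM) from Experiment 2 without Dox (60.2 to 63.2 CPM), Pdgfrb separates the libraries with Dox (43.9 to 51.2 CPM) from the 6 without, Pdgfa changes little, and Pdgfc is lowest at 0 h with Dox (10.4 CPM).

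The first comparison asks whether the members changed while SAG switched on Gli1. Without Dox, none of the 5 members was called at 17 to 19 h or at 30 h against 0 h, or between the later times (edgeR, n = 2 libraries per time, adjusted p from 0.727 to 1). The count was also 0 by DESeq2 and 0 at an unadjusted p under 0.05. The background was low: 0.111% of the 14354 genes were called at 17 to 19 h, 0.446% at 30 h and 0.00697% between 17 to 19 h and 30 h. Gli1 itself changed by 6.28 on the log2 scale at 17 to 19 h (SE 0.53, adjusted p = 7.36e-09, edgeR) and by 6.46 at 30 h.

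For Pdgfra the log2 change was 0.08 (SE 0.26) at 17 to 19 h and -0.03 (SE 0.26) at 30 h, the latter with a 95% interval of -0.54 to 0.49. For Pdgfrb it was -0.12 (SE 0.23) and -0.03 (SE 0.23, interval -0.49 to 0.42). The values within an experiment were 0.20 and 0.02 for Pdgfra in Experiment 1 and -0.05 and -0.07 in Experiment 2, at the middle and the last time. For Pdgfrb they were -0.28 and -0.22 in Experiment 1 and 0.04 and 0.15 in Experiment 2. The receptors therefore showed no shared direction over the experiments, although changes inside these intervals cannot be seen with 2 libraries per time.

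Of the ligands, Pdgfa gave -0.06 (SE 0.24) and -0.11 (SE 0.24), and Pdgfc gave 0.19 (SE 0.24) and 0.26 (SE 0.24, interval -0.20 to 0.73). Pdgfb, with at most 15 UMIs in a library, gave -0.71 (SE 1.15) and 0.14 (SE 1.02). Scaled to library totals without TMM factors, the 30 h values of Pdgfra, Pdgfrb and Pdgfa turned to 0.19, 0.17 and 0.10 while the median of all genes moved to 0.21, and none was called.

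Dox went with higher levels of both receptors and not, by this test, of the ligands. Within Experiment 2, over the 3 times, Pdgfra was 1.76-fold higher with Dox (log2 0.81, SE 0.13, adjusted p = 2.77e-06, edgeR, n = 3 libraries per arm) and Pdgfrb 1.98-fold higher (log2 0.99, SE 0.11, adjusted p = 7.26e-09, edgeR). Each receptor was higher at every time: Pdgfra by 0.67, 1.08 and 0.69 at 0, 19 and 30 h, and Pdgfrb by 1.16, 1.02 and 0.79. The background was broad, since 38.8% of the 13299 genes tested were called and 19.4% were called higher, so 2 members of 5 is no large share. The size of the difference stands nearer the edge: 4.93% of all genes rose as much as Pdgfra and 3.28% as much as Pdgfrb.

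Pdgfa (0.10, interval -0.13 to 0.34), Pdgfb (0.23, interval -0.64 to 1.10) and Pdgfc (0.21, interval -0.06 to 0.49) were not called with Dox. On library totals without TMM factors the median gene moved to 0.41, with 6851 genes called higher and 475 lower where TMM gave 2578 and 2586. On that scale Pdgfa (0.49) and Pdgfc (0.59) were called as well, and Pdgfra and Pdgfrb stood at 1.20 and 1.38. Without SAG time as a term Pdgfra was no longer called (0.82, adjusted p = 0.058, edgeR). Pdgfc was called when either library at 0 h of Experiment 2 was left out (0.57 in both cases, adjusted p = 0.00847 and 0.009, edgeR).

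The libraries with Dox also differed in the cells they held. Cells with UMIs of at least 4 genes of a G2 to M list made up 4.53% to 5.53% of them and 5.37% to 10.2% of the libraries of Experiment 2 without Dox. Cells without cycle genes (none of that list, at most 1 S phase gene) were also fewer with Dox at 19 and 30 h. They made up 29.66% and 28.12% with Dox against 45.71% and 42.01% without. Cells with at least 3 S phase genes were more frequent there, at 18.09% and 17.99% against 13.60% and 13.04%. At 0 h both of these shares differed in the other direction. Among cells without cycle genes Pdgfra (0.67, adjusted p = 1.54e-05, edgeR) and Pdgfrb (0.91, adjusted p = 9.65e-10, edgeR) were still higher with Dox. Cells with at least 3 of 10 smooth muscle and pericyte markers made up 5.51% to 8.18% with Dox against 3.09% to 4.05% without in Experiment 2. The summed level of that list, on library totals without TMM factors, was 374 to 515 CPM with Dox and 343 to 379 CPM without. Most of that sum came from Acta2 and Tagln, which fibroblasts also express when they become contractile. With TMM factors neither gene separated these arms. Acta2 was at 201 to 315 CPM with Dox and 267 to 284 CPM without, and Tagln at 92.9 to 193 CPM and 93.6 to 196 CPM. The pericyte genes Kcnj8 and Abcc9 had 0 UMIs in 9 and in 8 of the 9 libraries, and the smooth muscle myosin Myh11 was at 0.0538 to 0.204 CPM. Other genes of the list were present. Cspg4 was at 13.1, 17.2 and 21.1 CPM with Dox and at 8.28, 8.23 and 13.8 CPM without in Experiment 2. In Experiment 1 it was at 12.0, 21.6 and 18.9 CPM. Rgs5 was also higher with Dox at each time, but at most 0.403 CPM. Des was at 3.89 to 4.55 CPM with Dox and 4.21 to 5.16 CPM without in Experiment 2. The part of cells with smooth muscle and pericyte markers in the receptor levels was not tested.

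The SAG change with Dox was then set against that without. The difference was largest for Pdgfc, which went from 10.4 CPM at 0 h to 30.1 and 35.4 CPM with Dox, and from 16.0 to 19.4 and 24.9 CPM without Dox in the same experiment. In log2 the SAG change was larger with Dox by 1.34 (SE 0.42, adjusted p = 1, edgeR) at the middle time and by 1.50 (SE 0.42, adjusted p = 1, edgeR) at 30 h. Neither was called, and nor was any other gene: the background was 0% at both times by edgeR, with 112 genes higher and 88 lower at an unadjusted p under 0.05 at the middle time, 112 and 94 at 30 h, and 0 called by DESeq2. Each time with Dox rests on a single library, whose spread was taken from the other conditions. Without the library of Experiment 2 at 0 h without Dox, Pdgfc was called at both times (1.56, adjusted p = 0.0266, and 1.73, adjusted p = 0.00901, edgeR). For Pdgfra (0.29 and -0.02), Pdgfrb (0.01 and -0.19) and Pdgfa (0.10 and 0.44) the differences were smaller, with standard errors of 0.40 to 0.45.

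Between the experiments, without Dox, Pdgfra was 2.19-fold lower in Experiment 2 (log2 -1.13, SE 0.22, adjusted p = 0.000125, edgeR, n = 3 libraries each) and Pdgfc 1.52-fold lower (log2 -0.60, SE 0.20, adjusted p = 0.0145, edgeR). The levels of the experiments did not overlap for either gene. Pdgfrb (0.04, interval -0.33 to 0.42) and Pdgfa (0.08, interval -0.30 to 0.45) were not called. Pdgfb, with 1 UMI in all of Experiment 1, was not called (adjusted p = 0.0637, edgeR). Here 38.7% of the 14354 genes were called, and 18.5% were called lower in Experiment 2. On library totals the median gene moved to -0.43 and the calls from 2902 higher and 2656 lower to 1315 and 4473, with Pdgfra at -1.58 and Pdgfc at -1.06. The call of Pdgfc was lost when the library at 0 h or at 17 to 19 h of either experiment was left out (adjusted p from 0.105 to 0.226, edgeR) and among cells without cycle genes (-0.45, adjusted p = 0.143, edgeR), whereas Pdgfra stayed called there (-0.86, adjusted p = 0.00336, edgeR). Experiment, depth, software version and annotation cannot be told apart.

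**Figure D2:**
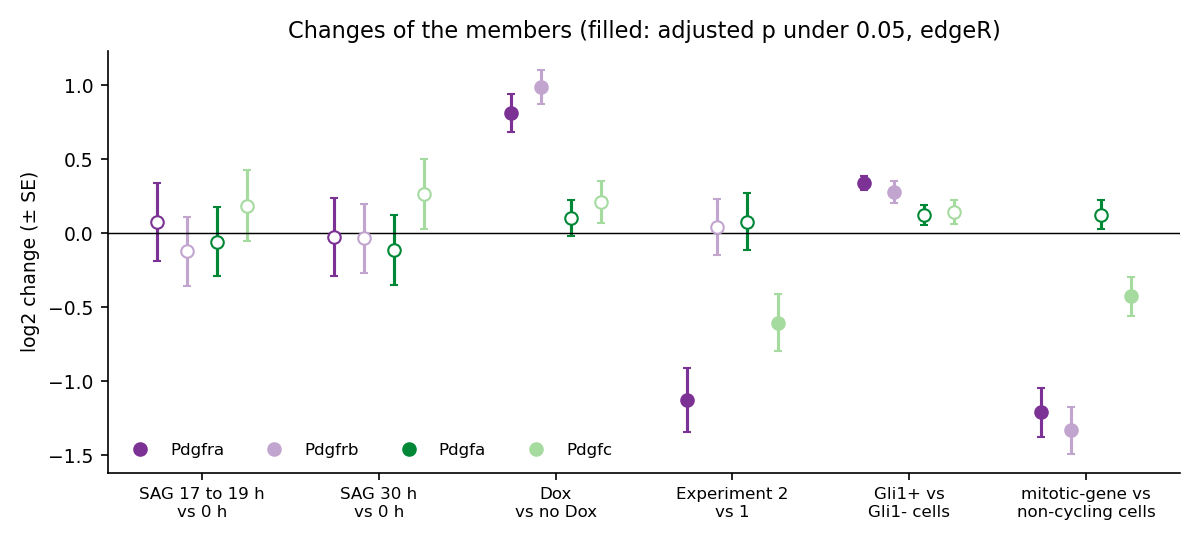
Log2 change of 4 members (points; bars, 1 standard error) in 6 comparisons, with filled points for an adjusted p under 0.05 by edgeR. No member is filled for SAG, both receptors are filled for Dox (0.81 and 0.99), for Gli1-positive cells and for cells with mitotic genes, and Pdgfra and Pdgfc are filled and negative for Experiment 2 against Experiment 1.

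To count cells at equal depth, cells with at least 10000 UMIs, 543 to 2658 per library, were thinned to 10000 UMIs each. Pdgfra was then seen in 72.7%, 69.1% and 66.4% of cells in Experiment 1, in 31.9%, 36.2% and 39.8% in Experiment 2 without Dox and in 55.1%, 68.1% and 61.3% with Dox, at the 3 times in order. Before thinning, shares ran from 42.9% in the shallow library to 92.1%. Pdgfrb was seen in 24.8%, 21.2% and 18.8%, in 14.1%, 17.7% and 21.4% and in 37.0%, 41.1% and 39.4% of thinned cells. As with the levels, the shares were highest for Pdgfrb in the 3 libraries with Dox and lowest for Pdgfra in the 3 of Experiment 2 without Dox. Among the libraries without Dox the Pdgfrb shares did not follow the TMM-scaled levels: at 17 to 19 h the share was higher in Experiment 1 and the level was lower. Thinning sets cells to equal totals without TMM factors. On library totals Pdgfrb at that time was at 23.7 CPM in Experiment 1 and 19.1 CPM in Experiment 2, the same order as the shares.

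Pdgfa was seen in 26.1% to 47.0% of thinned cells and Pdgfc in 8.23% to 33.6%, both lowest in a library at 0 h of Experiment 2. Pdgfb was seen in 0 to 6 cells per library, and the 4 libraries with 0 such cells allow shares of up to 0.113% to 0.552%. All cells here are fibroblasts, so no cell type that lacks the receptors was at hand to measure UMIs from free RNA. After thinning, cells with at least 3 Pdgfra UMIs made up 3.41% to 25.2%, and cells with at least 3 Pdgfrb UMIs 0.226% to 2.64%. Before thinning the mean per kept cell was 0.799 to 6.17 UMIs for Pdgfra and 0.307 to 2.48 UMIs for Pdgfrb. The variance of Pdgfra over cells exceeded its mean by 0.335 to 1.23 times the squared mean, and the largest count in a thinned cell was 17.

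Both receptors were seen in the same cell more often than the product of their shares in all 9 libraries. Cells with both made up 19.2%, 15.8% and 14.1% in Experiment 1 (products 18.0%, 14.6% and 12.5%), 6.13%, 8.16% and 12.1% in Experiment 2 without Dox (products 4.48%, 6.40% and 8.52%) and 23.5%, 30.3% and 26.4% with Dox (products 20.4%, 28.0% and 24.2%). The excess over the product was widest at 30 h in Experiment 2 without Dox. Cells with neither receptor ranged from 21.1% at 19 h with Dox to 60.2% at 0 h in Experiment 2 without Dox.

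The odds ratio of seeing Pdgfrb with and without Pdgfra ran from 1.40 to 2.40 with a median of 1.66, and its 95% interval reached below 1 in the libraries of Experiment 1 at 0 and 17 h. It was highest at 30 h in Experiment 2 without Dox, where Pdgfrb was seen in 30.4% of cells with Pdgfra and in 15.4% of the others. The median odds ratio of the other pairs of members, Pdgfb left aside, was 1.18 for Pdgfra with Pdgfa, 1.09 for Pdgfa with Pdgfc, 1.04 for Pdgfra with Pdgfc, 1.03 for Pdgfrb with Pdgfc and 0.992 for Pdgfrb with Pdgfa. Pearson's r of the log counts of the receptors across the cells of a library was 0.0392 to 0.180, a weak relation in sparse counts.

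**Figure D3:**
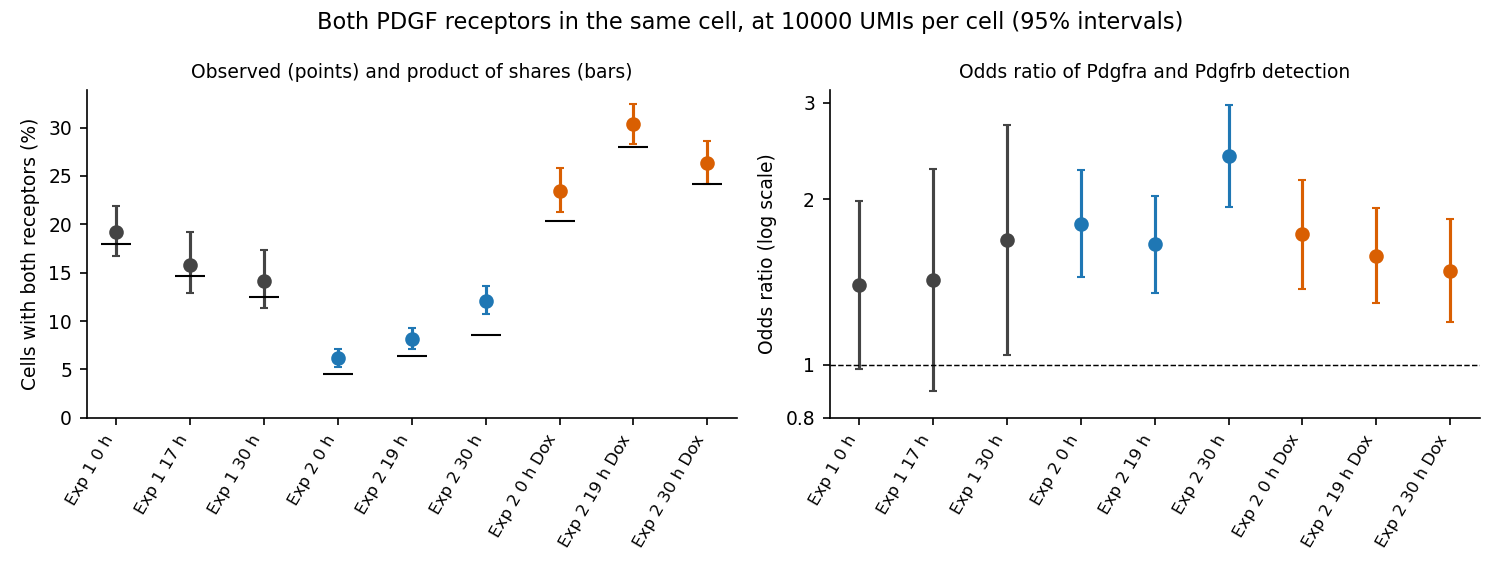
Left, share of thinned cells with both receptors in each library (points, with exact binomial 95% intervals) and the product of the separate shares (black bars). Right, odds ratio of Pdgfra and Pdgfrb detection on a log axis with its 95% interval and a dashed line at 1; the observed share is above the product in all 9 libraries and the odds ratio lies between 1.40 and 2.40.

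The relation was tested over libraries by summing cells with and without a receptor UMI in each library, with the library as a block. In cells with Pdgfra, Pdgfrb was 1.48-fold higher (log2 0.56, SE 0.06, adjusted p = 4.54e-07, edgeR) and higher in 9 of 9 libraries, by 1.31 to 2.21 times. In cells with Pdgfrb, Pdgfra was 1.32-fold higher (log2 0.40, SE 0.04, adjusted p = 8.34e-10, edgeR), again in 9 of 9 libraries. The background was 32.7% of 10535 genes in the first split and 20.2% of 10236 in the second, with 14.9% and 7.71% called higher, and 0.873% and 0.850% of the genes rose as much as the other receptor did. Pdgfa (0.09 and -0.05) and Pdgfc (-0.02 and 0.07) were not called in either split.

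Leading genes were listed among called genes above a floor of mean UMIs per thinned cell, with mitochondrial and ribosomal protein genes left out. The 6 largest listed falls in cells with Pdgfra began with the histone Hist1h1b (-1.84), Pclaf, a partner of PCNA in replication (-1.69), and Birc5, the mitotic regulator survivin (-1.63). The others were Cdc20, an activator of the anaphase-promoting complex (-1.54), Prc1, a protein of the mitotic spindle (-1.48), and Pbld1 (-1.45). The same 6 genes had the largest listed falls in cells with Pdgfrb. The largest listed rises were those of Olfml2b (0.88), Trabd2b (0.78) and Ctla2b (0.74). Svep1, an extracellular matrix protein (0.72), and Thbs2, a thrombospondin (0.70), were also higher. With Pdgfrb the small proteoglycans Lum (0.78), Dcn (0.63) and Ogn (0.59) were higher. Among cells without cycle genes the receptors still went together, with Pdgfrb at 0.52 (adjusted p = 9.53e-07, edgeR) in cells with Pdgfra and Pdgfra at 0.34 (adjusted p = 5.09e-07, edgeR) in cells with Pdgfrb.

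Cells with mitotic genes had less of both receptors. These 1082 cells had UMIs of at least 4 of 24 G2 to M genes, and were set against 5771 cells with none of them and at most 1 of 20 S phase genes. Pdgfra was 2.31-fold lower in them (log2 -1.21, SE 0.17, adjusted p = 3.34e-06, edgeR) and Pdgfrb 2.52-fold lower (log2 -1.33, SE 0.16, adjusted p = 3.50e-07, edgeR), each in 9 of 9 libraries. The background was wide, with 47.9% of 8330 genes called and 25.1% called lower, but 1.12% of the genes fell as much as Pdgfra and 0.804% as much as Pdgfrb. Pdgfc fell by 0.43 (SE 0.13, adjusted p = 0.0108, edgeR) with 6 of 9 libraries lower, and Pdgfa was not called (0.12, interval -0.07 to 0.32).

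Per thinned cell, Pdgfra went from 1.68, 1.61 and 1.21 UMIs without cycle genes to 1.10, 1.25 and 1.04 UMIs with mitotic genes in Experiment 1. In Experiment 2 it went from 0.576, 0.566 and 0.662 to 0.0675, 0.263 and 0.255 UMIs without Dox, and from 1.07, 1.65 and 1.17 to 0.367, 0.692 and 0.493 UMIs with Dox. The fall was deeper in Experiment 2: -1.59 against -0.57 in Experiment 1, a difference of -1.02 (SE 0.23, adjusted p = 0.00331, edgeR) with 8.61% of genes called and 4.14% called lower. This test was added after the libraries were seen to differ, so its p describes that observation and is no independent support for it. For Pdgfrb the difference was -0.52 (SE 0.35, adjusted p = 0.417, edgeR), and the falls were -1.45 and -0.93.

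Pdgfrb in mitotic-gene cells was lowest at 30 h and 0 h of Experiment 2 without Dox, with 0.0364 and 0.0422 UMIs per cell against 0.267 and 0.184 in cells without cycle genes. In the library at 0 h, 6.33% of the mitotic-gene cells had a Pdgfra UMI and 35.9% of the cells without cycle genes did. Cells with mitotic genes made up 4.53% to 12.0% of the thinned cells of a library, and cells without cycle genes 20.9% to 57.4%. The latter share was 20.9% to 26.2% in Experiment 1 and 28.1% to 57.4% in Experiment 2.

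**Figure D4:**
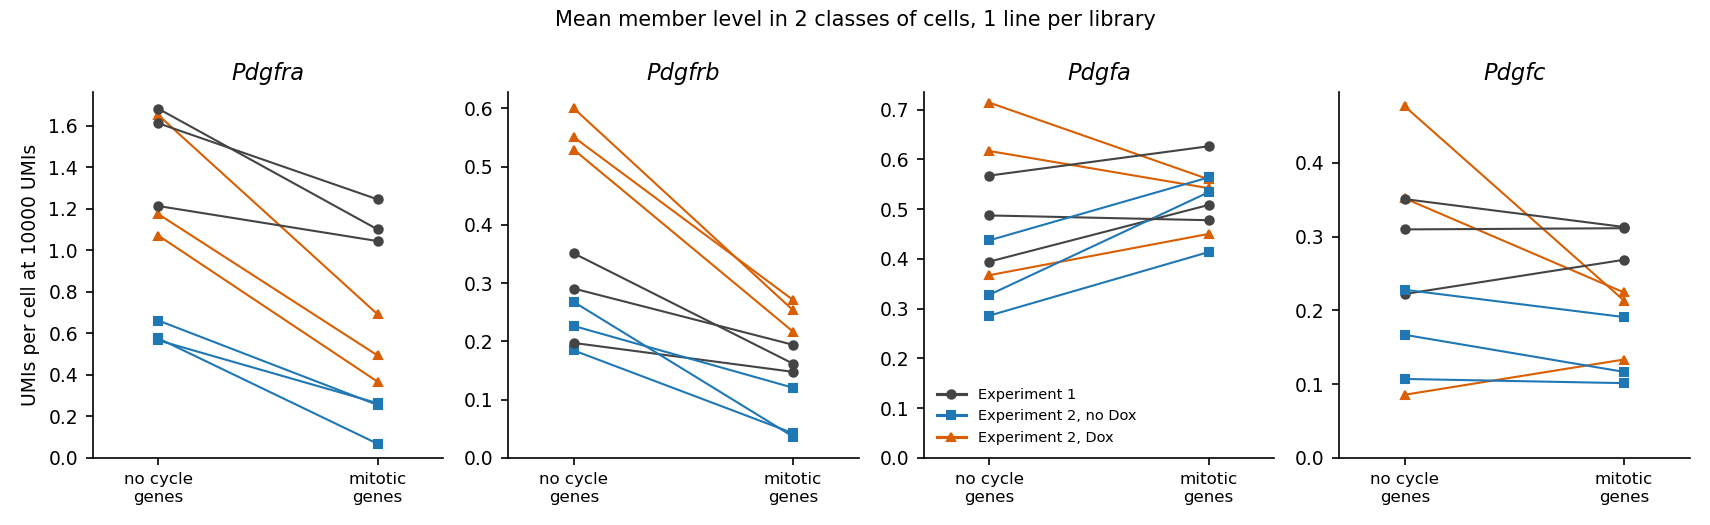
Mean UMIs per cell at 10000 UMIs for 4 members in cells without cycle genes (left of each panel) and with mitotic genes (right), 1 line per library. Every line falls for Pdgfra and Pdgfrb, while Pdgfa rises in 6 of 9 libraries and Pdgfc falls in 6 of 9.

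Cells in which the Hedgehog response could be seen had slightly more of both receptors at equal depth. In the 6 libraries with SAG, 1454 thinned cells had a Gli1 UMI and 7769 had none. At 0 h 0.0376% to 0.218% of cells had a Gli1 UMI, against 4.83% to 26.9% with SAG. Pdgfra was 1.26-fold higher in Gli1-positive cells (log2 0.34, SE 0.05, adjusted p = 1.88e-07, edgeR) and Pdgfrb 1.21-fold higher (log2 0.28, SE 0.07, adjusted p = 0.00610, edgeR), each in 6 of 6 libraries. The background was 10.8% of 10130 genes called and 3.34% called higher. Pdgfa (0.12, interval -0.01 to 0.25) and Pdgfc (0.14, interval -0.02 to 0.30) were not called.

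Per thinned cell Pdgfra stood at 1.98 against 1.65 and 1.89 against 1.43 UMIs in Experiment 1 (17 and 30 h, Gli1-positive against negative), at 0.703 against 0.506 and 0.841 against 0.619 in Experiment 2 without Dox, and at 1.96 against 1.53 and 1.48 against 1.17 with Dox. For Pdgfrb the pairs were 0.465 against 0.242 and 0.333 against 0.218, then 0.286 against 0.199 and 0.308 against 0.260, then 0.632 against 0.533 and 0.600 against 0.496. The higher side was the Gli1-positive one throughout, though Experiment 1 has only 43 and 27 such cells. The largest listed falls in Gli1-positive cells were those of Cdsn (-1.59), Ccl2 (-1.53) and the histone Hist1h1b (-1.51). Mki67 (-1.43) and Prc1 (-1.50), genes of dividing cells, were lower too. Gipc2 (0.62), Ptch1 (0.61) and Ltbp4 (0.55) had the largest listed rises. Among cells without cycle genes Pdgfra stayed called (0.44, adjusted p = 7.32e-06, edgeR) and Pdgfrb did not (0.29, adjusted p = 0.182, edgeR). With cells thinned to 5000 UMIs neither was called (0.19, adjusted p = 0.14, and 0.22, adjusted p = 0.406, edgeR).

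**Figure D5:**
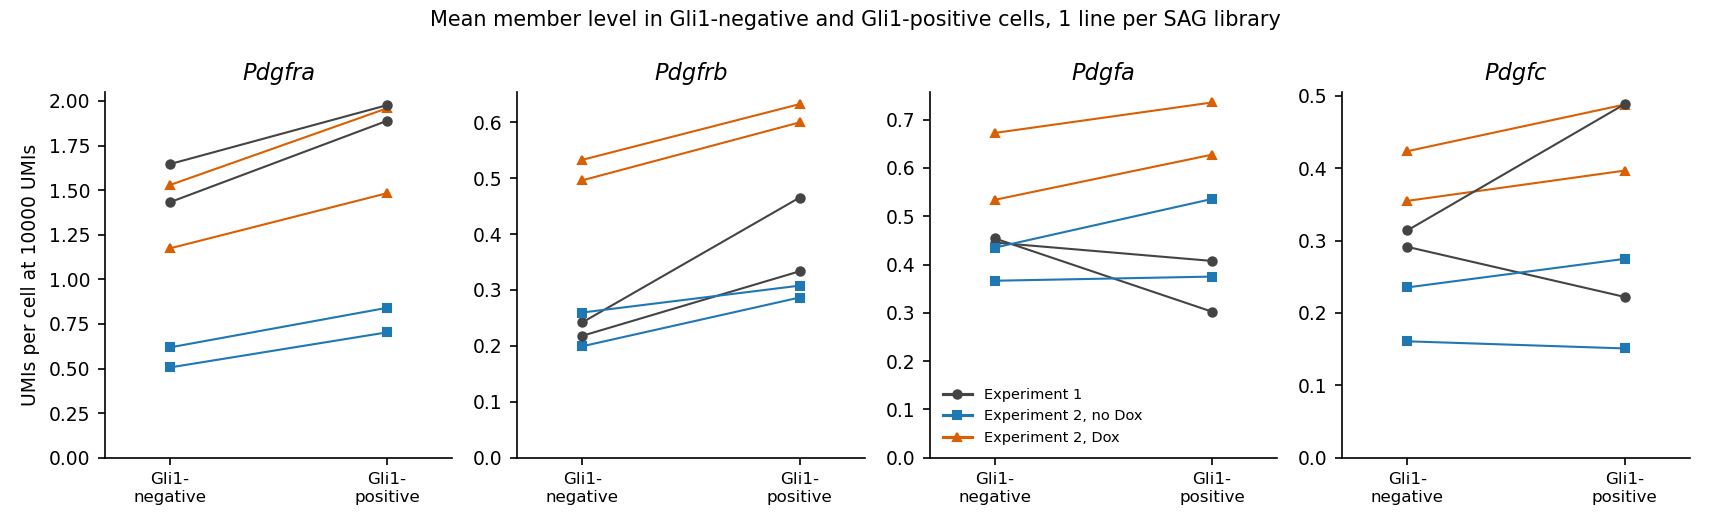
Mean UMIs per cell at 10000 UMIs for 4 members in Gli1-negative (left of each panel) and Gli1-positive cells (right), 1 line for each of the 6 libraries with SAG. All 6 lines rise for Pdgfra and Pdgfrb, and 4 of 6 rise for Pdgfa and Pdgfc.

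Around the members, the other genes of the pathway were counted in 5 lists. With SAG the lists of ligand activation (5 tested), receptor-proximal signalling (35), attenuation and feedback (19) and other receptor tyrosine kinases (17) had 0 genes called by edgeR at 17 to 19 h and at 30 h, against 0.111% and 0.446% of all genes. At an unadjusted p under 0.05 they had 0 at 17 to 19 h and 7 at 30 h. At that threshold 136 of all 14354 genes were higher and 247 lower at 17 to 19 h, and 581 were higher and 902 lower at 30 h. Of 21 genes that PDGF is known to induce in fibroblasts, 2 fell at 17 to 19 h, the chemokine Ccl2 (-1.29) and the immediate-early gene Fos (-2.19), and 3 at 30 h, Ccl2 (-1.95), the chemokine Cxcl1 (-2.30) and thrombospondin Thbs1 (-1.32). Fos was at 35.3 CPM at 0 h and 2.60 CPM at 17 h in Experiment 1, against 9.01 CPM at 0 h and 7.11 CPM at 19 h in Experiment 2, so its fall came mostly from the high level of Experiment 1 at 0 h. The median of that list was -0.79 and -0.91, with medians of -0.02 and -0.01 for all genes. At an unadjusted p under 0.05 (edgeR), 14 of the 21 genes were lower and 0 higher at 17 to 19 h, and 13 were lower and 0 higher at 30 h.

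With Dox, 8 of 16 other receptor tyrosine kinases were called higher and 0 lower, where 38.8% of all genes were called. Fgfr2 (1.36) and Fgfr1 (0.71), receptors of fibroblast growth factors, Mertk (1.82), a receptor for apoptotic cells, and Igf1r (0.82), the IGF-1 receptor, led them. The median of this list was 0.34, against 0.02 for all genes. Of 20 PDGF-inducible genes 4 rose and 8 fell, with a median of -0.16, among them the immediate-early genes Nr4a1 (1.11) and Egr1 (0.94), the transcription factor Myc (-0.87) and the urokinase receptor Plaur (-0.94). In receptor-proximal signalling 8 of 35 rose and 3 fell, a smaller share than among all genes. They include Pik3r1, the regulatory subunit of PI3-kinase (1.28), the docking protein Gab1 (0.67) and Pik3cb, a catalytic subunit (-0.83). Of 18 genes of attenuation and feedback 3 rose and 5 fell, with Lrig1 (0.62) and Lrp1, a co-receptor that binds PDGF receptor beta (0.66), up and the inhibitor Spry2 (-0.59) and the phosphatase Ptpn2 (-0.50) down. Of the activating proteases, Plat, tissue plasminogen activator, which cuts PDGF-C, rose by 0.55 and Plau, urokinase, fell by 1.38.

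In cells with mitotic genes 3 of 4 genes tested in the ligand activation list were called, all lower, where 47.9% of all genes were called and 25.1% were called lower. Plat (-1.09), Pdgfrl, a receptor-like protein (-1.23), and Sparc, which binds PDGF (-0.96), fell. Pik3r1 (-1.09) and Lrp1 (-0.87) fell there too, while Hras rose by 0.54 and Fosl1, an AP-1 factor, by 3.55. In cells with Pdgfra, 9 of 35 receptor-proximal genes were called higher and 3 lower. Of 13 other receptor tyrosine kinases 7 were called higher and 2 lower. Among all genes 32.7% were called in that split and 14.9% were called higher. The higher ones included Pik3r1 (0.48), Fgfr1 (0.28) and Igf1r (0.27).

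The genes whose levels followed each receptor most closely over the 9 libraries, after each experiment's mean was taken off, were ranked by Pearson's r among 6930 genes with a mean of at least 10 CPM over the libraries; single libraries can lie below it, as Wnt5a does at 1.47 to 7.41 CPM in the 6 libraries without Dox. For Pdgfra these were Cyth3 (r = 0.977), Wnt5a (0.965), Cped1 (0.963), Svep1 (0.962) and Klhl24 (0.961). For Pdgfrb they included Marcks (r = 0.988), H2afy2 (0.986), Lima1 (0.984) and Dab2 (0.981). The receptors had r = 0.900 with each other, rank 67 for Pdgfra and 97 for Pdgfrb. The 9 points share libraries, depth and the step with Dox, so these values describe the libraries and no more.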

How the data were processed

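The authors deposited matrices of UMI counts per gene and cell, made with Cell Ranger on mm10 per the submitters' processing notes, and per the file headers with software 3.1.0 (Experiment 1, 31054 features) and 6.0.1 (Experiment 2, 32286 features). Aligner settings and use of strand are not given in the sources used here. The labels describe release of the cells from plates with trypsin. Features were matched by gene ID (30407 shared, 597 with a changed symbol).

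From these deposited counts, cells under 5000 UMIs were dropped, as were those above 10% mitochondrial UMIs, a limit that removed 25.9% to 46.3% of cells. No doublet caller was run, and leaving out the 10% of cells with most UMIs was an alternative for the cell classes. Counts were summed per library and tested with edgeR 4.0.16 (quasi-likelihood, TMM, filterByExpr, Benjamini-Hochberg over all genes, threshold 0.05) in R 4.3.3. For SAG, experiment and the Dox by SAG difference, 1 model over the 9 libraries had a term for condition and a term for experiment. For Dox, the model held the 6 libraries of Experiment 2 and a term for SAG time. The cell classes were summed per library from cells thinned to 10000 UMIs, with the library as a block. Standard errors are the change divided by the root of edgeR's F, and 95% intervals of changes are normal intervals. Levels carry 95% Poisson intervals and shares exact (Clopper-Pearson) 95% intervals, and a count of 0 allows 3 counts; all cover counting error only.

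The replicate numbers are the experiment numbers of the labels. After group means were taken off, the libraries of Experiment 2 correlated across genes between times with r = 0.782, 0.681 and 0.788, so experiment was kept as a block. Genes named are the 5 members, Gli1, up to 4 called genes by smallest p from each pathway list and comparison, 6 called genes with the largest rise and 6 with the largest fall per cell class, and 5 genes most like each receptor, of which 1 is not reported here. The genes named per cell class also had to pass a floor of mean UMIs per thinned cell, and mitochondrial and ribosomal protein genes were left out. The members and lists were chosen with earlier results of these data known. Alternatives were DESeq2 1.42.0, other limits on cells and counts, other scaling, other depth, fits without the block or the SAG term and leaving out libraries. Scaling to library totals, the restriction to cells without cycle genes and the difference between experiments in the mitotic contrast were added after the data were seen. Gene positions are from GENCODE M21 and promoter windows from RefSeq on GRCm38.p6. Scripts in Python 3.11.15 (with pandas 2.3.3 and scipy 1.17.1) and R were tested on simulated data.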

Additional observations from a re-analysis of the deposited data

Results flagged for a closer look

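The SAG differences of both receptors had opposite signs in the experiments without Dox, though several were within counting error. For Pdgfra the log2 differences from 0 h were 0.20 at 17 h and 0.021 at 30 h in Experiment 1 and -0.051 at 19 h and -0.071 at 30 h in Experiment 2. For Pdgfrb they were -0.28 and -0.22 in Experiment 1 and 0.037 and 0.15 in Experiment 2. Each value compares 1 library with 1 library, and the difference between the experiments was not tested. On library totals without TMM factors Pdgfra gave 0.13 and -0.06 in Experiment 1 and 0.18 and 0.44 in Experiment 2, so at 30 h both signs turned over and at 17 to 19 h they were alike. On the same scale Pdgfrb gave -0.35 and -0.30 in Experiment 1 and 0.27 and 0.66 in Experiment 2, opposite at both times as before.

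The lower level of Pdgfra in cells with mitotic genes was deeper in Experiment 2 than in Experiment 1, with a log2 difference of -1.02 and a standard error of 0.23. The comparison was made because the libraries were seen to differ in this way, so it describes that observation and is no independent support for it.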

How the results depend on the processing

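Most values of the members kept their direction and their side of the threshold. On library totals without TMM factors, signs turned for Pdgfa at 17 to 19 h (0.0097), Pdgfra, Pdgfa and Pdgfrb at 30 h (0.19, 0.10 and 0.17), Pdgfra and Pdgfa between the later times (0.044 and 0.086), Pdgfra in the Dox by SAG difference at 30 h (0.15) and Pdgfa and Pdgfrb between the experiments (-0.38 and -0.41), and 4 members were called with Dox. In cells without cycle genes they turned for Pdgfra at 17 to 19 h (-0.13), Pdgfc and Pdgfa between the later times (-0.065 and 0.18), Pdgfrb and Pdgfra in the Dox by SAG differences at 17 to 19 h and 30 h (-0.11 and 0.070), Pdgfa between the experiments (-0.027) and Pdgfc in the Pdgfrb split (-0.0061), and 1 member was called between the experiments and 1 in the Gli1 split. Thinned to 5000 UMIs, Pdgfa in the Gli1 split (-0.10) and Pdgfc in the Pdgfra and Pdgfrb splits (0.083 and -0.028) turned, 0 members were called in the Gli1 split, Pdgfc lost its call in mitotic-gene cells (-0.31, adjusted p = 0.135, edgeR), and the median shares of cells with Pdgfrb and Pdgfa were 12.8% and 18.7%. DESeq2 turned Pdgfb at 17 to 19 h (0.33) and between the later times (-0.19) and Pdgfrb in the Dox by SAG difference at 17 to 19 h (-0.0076). A limit of 20% mitochondrial UMIs turned Pdgfra at 17 to 19 h (-0.12) and in the Dox by SAG difference at 30 h (0.010), and with that limit Pdgfb was called between the experiments (adjusted p = 0.0131, edgeR). No filter on low counts turned Pdgfra at 30 h (0.0035), and at least 10000 UMIs per cell turned Pdgfrb in the Dox by SAG difference at 17 to 19 h (-0.0021). Without SAG time as a term 1 member was called with Dox. The cause of these shifts was not tested.

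Without the replicate block, 0 members were called in the Gli1, Pdgfra and Pdgfrb splits (Pdgfra 0.30 and Pdgfrb 0.43 with Gli1, Pdgfrb 0.52 with Pdgfra and Pdgfra 0.36 with Pdgfrb), Pdgfc in the Pdgfrb split was -0.0053, and Pdgfc lost its call in mitotic-gene cells (-0.39, adjusted p = 0.241, edgeR), where both receptors kept theirs.

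With 1 library left out at a time, values ranged as follows. At 17 to 19 h Pdgfra ran from -0.028 to 0.18, Pdgfrb from -0.29 to 0.049, Pdgfa from -0.12 to 0.0068, Pdgfc from -0.036 to 0.44 and Pdgfb from -1.19 to 4.55. At 30 h Pdgfra ran from -0.11 to 0.061, Pdgfrb from -0.20 to 0.13, Pdgfc from -0.078 to 0.59 and Pdgfb from -3.45 to 3.88. Between the later times Pdgfra ran from -0.21 to 0.0026, Pdgfrb from -0.0089 to 0.19, Pdgfc from -0.27 to 0.40 and Pdgfb from -4.47 to 1.27. With Dox Pdgfa ran from -0.035 to 0.17 and Pdgfb from -0.049 to 0.47. In the Dox by SAG difference Pdgfrb ran from -0.16 to 0.17 and Pdgfb from -4.09 to 1.66 at 17 to 19 h, and Pdgfra from -0.12 to 0.065 and Pdgfb from -2.85 to 4.45 at 30 h, with 0 to 1 members called at each time. Between the experiments Pdgfrb ran from -0.027 to 0.16, with 1 to 2 members called. Pdgfc ran from -0.045 to 0.0099 in the Pdgfra split and from -0.0028 to 0.12 in the Pdgfrb split.

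Counts of all genes called also moved. At 17 to 19 h 16 became 7 (DESeq2), 43 (no filter, and 20% mitochondrial UMIs), 40 (no cycle genes), 0 (no block) and 8 to 243 (a library left out). At 30 h 64 became 12, 210, 237, 186, 0 and 1 to 1276 in the same order. Between the later times 1 became 0 to 16. With Dox 5164 became 3124 (no cycle genes) and 194 (no SAG term), and 2966 and 2967 without the library at 0 h without or with Dox, and between the experiments 5558 became 3203 (no cycle genes) and 2595 and 2694 without the library of Experiment 1 at 17 h or of Experiment 2 at 19 h without Dox. In the Dox by SAG differences 0 became up to 12 and 10, and 169 and 163 without the library of Experiment 2 at 0 h without Dox. In the Gli1 split 1095 became 384 (DESeq2), 0 (no block), 279 (5000 UMIs) 237 (no cycle genes) and 703 (without Experiment 2 at 30 h without Dox), in the Pdgfra split 3447 became 64 (no block), 1957 (5000 UMIs) and 1758 (no cycle genes), in the Pdgfrb split 2071 became 1291, 4, 727 and 702, and in mitotic-gene cells 3989 became 1688 (no block). For the difference between experiments in the mitotic contrast 717 became 400 to 425 without any 1 library of Experiment 1. Pdgfb, at 15 UMIs or fewer in a library, was too rare for its direction to be read, and 2 libraries per SAG time limit the SAG comparisons.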
